A study of Sus scrofa with 16 samples.

Results

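DNA methylation around the promoters of 2 pig genes, EPHX2 and ICA, was described from MeDIP-seq peaks in heart tissue. The EPHX2 locus was the promoter window on chromosome 14 from 12475001 to 12475500 with 100 kb on each side, that is chr14:12375001-12575500, and the ICA locus was the window on chromosome 13 from 82337501 to 82338000 with the same flanks, that is chr13:82237501-82438000 (both Sscrofa10.2). Every peak that overlapped these limits was taken, which gave 145 peaks at EPHX2 and 99 at ICA of 1159046 peaks in all. Both windows were chosen by the study's own contrast, as windows of 500 bp with more methylation reads in Tibetan highland than in Yorkshire highland pigs, and both were listed by the study as promoter, its term for the stretch upstream of the transcription start. At the windows themselves the values below are therefore a description. Their clusters were among those of the test over all clusters of the genome, but no p-value is read at them. The peaks came from 16 castrated boars of 6 months of age, 4 per group. The highland groups were Tibetan (TH) and Yorkshire (YH) pigs, and the lowland groups were the same breeds (TL and YL). All were born and raised where they were sampled, and YH and TL came from stock moved there a few years earlier. Pigs of an elevation shared their feeding, so elevation, place and feed cannot be told apart.

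EPHX2 encodes soluble epoxide hydrolase, the enzyme that turns epoxyeicosatrienoic acids into their diols. These epoxides are lipid mediators made from arachidonic acid that widen blood vessels, and the enzyme has long been studied in the heart and in hypertension. ICA encodes the porcine inhibitor of carbonic anhydrase, a plasma protein of the transferrin family that binds carbonic anhydrase, the enzyme that interconverts carbon dioxide and bicarbonate. Methylation of cytosines in a promoter often goes with low transcription of its gene, whereas methylation within a gene body is common in genes that are transcribed. In MeDIP-seq, DNA fragments are captured with an antibody against 5-methylcytosine, and a peak is a stretch where the reads pile up above the local background. A stretch without a peak is one where no enrichment was called, which is not a measurement of zero methylation.

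In RefSeq (assembly Sscrofa11.1, used here for names and order alone), EPHX2 (gene ID 414425) lies between CHRNA2, a subunit of the nicotinic acetylcholine receptor, and GULO, the last enzyme of vitamin C synthesis. The gene that the study named ICA (gene ID 396845) carries the symbol TF with the synonym PICA there. It lies between TOPBP1, a protein of DNA replication and its checkpoint, and a further gene with the symbol TF (gene ID 396996), the name of the iron carrier transferrin. A pair of transferrin family genes thus lie side by side at this locus. Exons, introns and transcription starts on Sscrofa10.2 were not analysed here.

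Primers from the study's primer tables are shown because they are its designed sequences for EPHX2. The first is the reverse primer of its bisulfite PCR, whose CpG sites and peak the study's text placed in introns, while its list of windows gives the EPHX2 window as promoter. Its forward primer holds a degenerate base and is not printed. In that assay, run on other animals of the groups, the study found no significant difference in EPHX2 methylation between TH and YH. The methylated ratio it gave was lower in TH than in YH. The other pair amplified EPHX2 cDNA in the qPCR.
EPHX2 bisulfite reverse primer: acccactaaacaaaaccaaaaatc
EPHX2 qPCR forward primer: tcccaagatgtccaagcata
EPHX2 qPCR reverse primer: ggttcctggcatcagtctcc
The bisulfite primer of 24 bases holds 8 C and 0 G, since the converted strand that it pairs with has lost its unmethylated C. The positions of these primers relative to the window and the peaks were not analysed here.

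The files hold 1 list of peaks per group, which had 280678 (TH), 287224 (YH), 259066 (TL) and 332078 (YL) peaks, and no peak carries an animal's name. No base lay under more than 4 peaks of a list, and the YH list consists of 4 consecutive runs of rows, with 63138 to 76743 peaks, within each of which no base lay under more than 1 peak. A list was therefore read as the joined calls of 4 animals. The most peaks of a group over any base of a region was taken as its number of animals with a peak, from 0 to 4. This number is a lower bound, since overlapping peaks can be joined in a chain (a cluster) without all sharing a base. At the cluster 67.8 kb below the ICA window, peaks of 3 YH runs gave a number of 2. In the TH list, 100907 rows give the end of the peak in a joint field alone. None of these rows overlapped each other, and the other 179771 TH rows were at most 3 deep, so that the 100907 peaks were read as those of a single animal. That animal had 1.68 times the mean of the other 3 TH animals (59924 peaks), and the other groups had means of 83020 (YL), 71806 (YH) and 64766 (TL) peaks per animal. It is called the TH animal listed apart, and results that rest on it are given with and without it. The number of reads per animal is not part of these lists, so the depth behind a missing peak is unknown.

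At the EPHX2 promoter window, 1 TH animal had a peak, and no peak of YH, TL or YL overlapped it. This peak ran from 12474856 to 12475678 (823 bp), covered the whole window and had its summit 0.178 kb above the window centre. It held 28 tags (reads in the peak) with a fold enrichment of 7.64 over the local background, both given by the peak caller. Within its own list it was an ordinary peak, since 53.9% of the TH peaks had as many tags or fewer and 41.4% had as high a fold enrichment or lower. It belonged to the TH animal listed apart, and without that animal the window had 0 peaks in the 15 other libraries. Over the genome, 8.27% of the 242875 clusters of peaks (overlapping peaks of the 4 lists joined) had 1 TH peak and no peak of the other groups. Of these 20079 clusters, 38.8% had their peak from the TH animal listed apart. The nearest clusters were 6.46 kb below the window, that is at lower coordinates, and 12.6 kb above it, so that the window stood in a stretch without other peaks.

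At the ICA promoter window, 3 TH and 2 YH animals had a peak and 0 of the 8 lowland animals did. The peaks together spanned 2872 bp, from 82335238 to 82338109. The 3 TH peaks held 23, 30 and 75 tags with fold enrichments of 6.63, 9.03 and 7.61. The YH peaks held 20 and 25 tags with fold enrichments of 8.03 and 6.56, and they came from different runs of the YH list. Of all TH peaks, 42.4%, 57.6% and 90.8% had as many tags as these TH peaks or fewer. Of all YH peaks, 28.0% and 42.7% did for the YH peaks. By fold enrichment these shares were 27.3%, 59.7% and 40.9% in TH and 60.8% and 38.9% in YH. The ranges of the fold enrichment in TH and YH overlapped, and the peak with 75 tags stood above the other 4 in tags. That peak was 2841 bp long, against 866 to 1081 bp for the others, and belonged to the TH animal listed apart. The YH peak of 20 tags covered 426 bp of the window and the other 4 covered all 500 bp. Their summits lay within 93 bp of each other, from -0.281 to -0.188 kb of the window centre, and 696 bp lay under all 5 peaks. The animals of both breeds thus had the same short core, while the long TH peak extended furthest to the lower side.

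**Figure D1:**
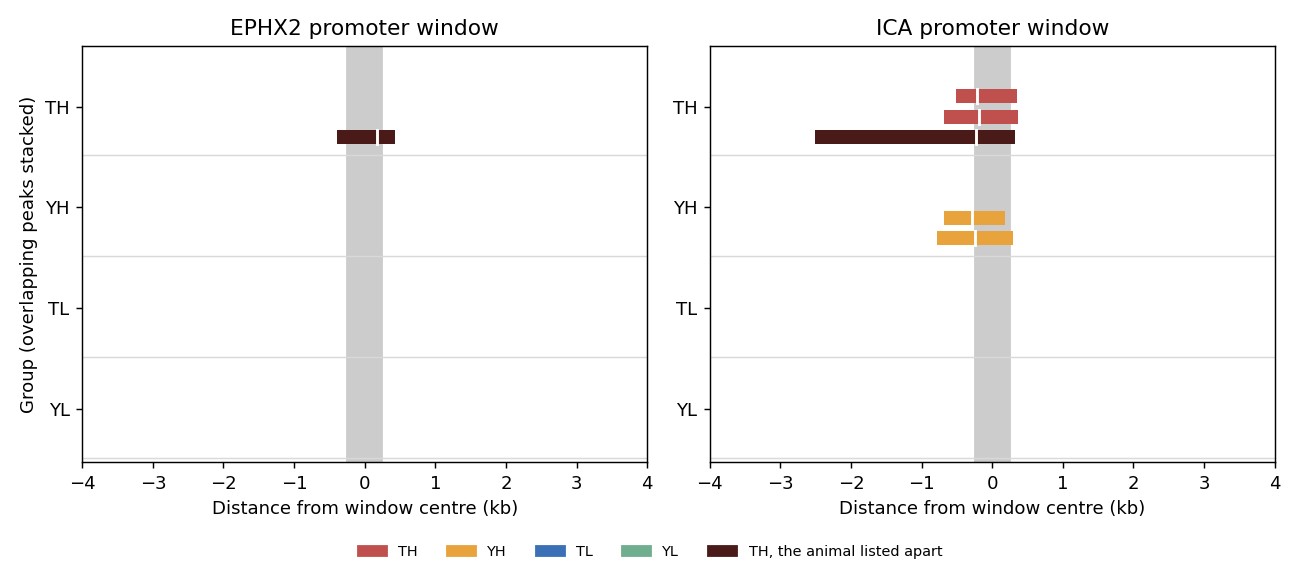
Peaks within 4 kb of the centre of the EPHX2 (left) and ICA (right) promoter windows, by group, with overlapping peaks stacked and the distance in kb on the horizontal axis. The grey band is the window, a white line is the summit, and the dark bars are the TH animal listed apart: EPHX2 has that animal's peak alone, and ICA has 3 TH and 2 YH peaks and none of TL or YL.

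The highland pattern at ICA was set beside all clusters of the genome. At least 5 of 8 highland and 0 of 8 lowland animals were found at 132 of 242875 clusters, or 0.0543%, and the reverse at 215 clusters, or 0.0885%. The exact combination of 3 TH, 2 YH, 0 TL and 0 YL animals was found at 54 clusters, or 0.0222%. Without the TH animal listed apart, ICA had 2 TH and 2 YH animals against 0, and at least 4 of 7 highland against 0 of 8 lowland animals were found at 266 clusters, or 0.113%. These shares describe how often the pattern occurred, with limits taken from the count at ICA. They are over all clusters, also those that could not show it, such as the 30.1% with a single animal. They therefore do not measure how rare a highland split is among clusters with as many animals as ICA's. The window had been selected on its TH methylation and its pattern was known, so no p-value is given for it. In heart tissue, a change in the mixture of cells and a change of methylation within the cells cannot be told apart. The nearest other clusters were 14.6 kb below the window, with 3 TH, 2 YH, 2 TL and 3 YL animals, and 5.26 kb above it, with 1 YH animal.

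The 145 peaks of the EPHX2 locus fell into 30 clusters, with 12 below the window, 17 above it and 1 at it. The clusters covered 48679 bp, or 24.3% of the locus, and the longest stretch without a peak was 12.5 kb. The median cluster had peaks in 3.5 of the 16 animals (3 over all clusters of the genome), and 6 of 30 clusters had a single animal, where 30.1% did over the genome. In 7 clusters, 8 or more animals had a peak, or 23.3% against 22.8%. No EPHX2 cluster had a peak in all 16 animals, and 9 of the 30 had a peak in each of the 4 groups.

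**Figure D2:**
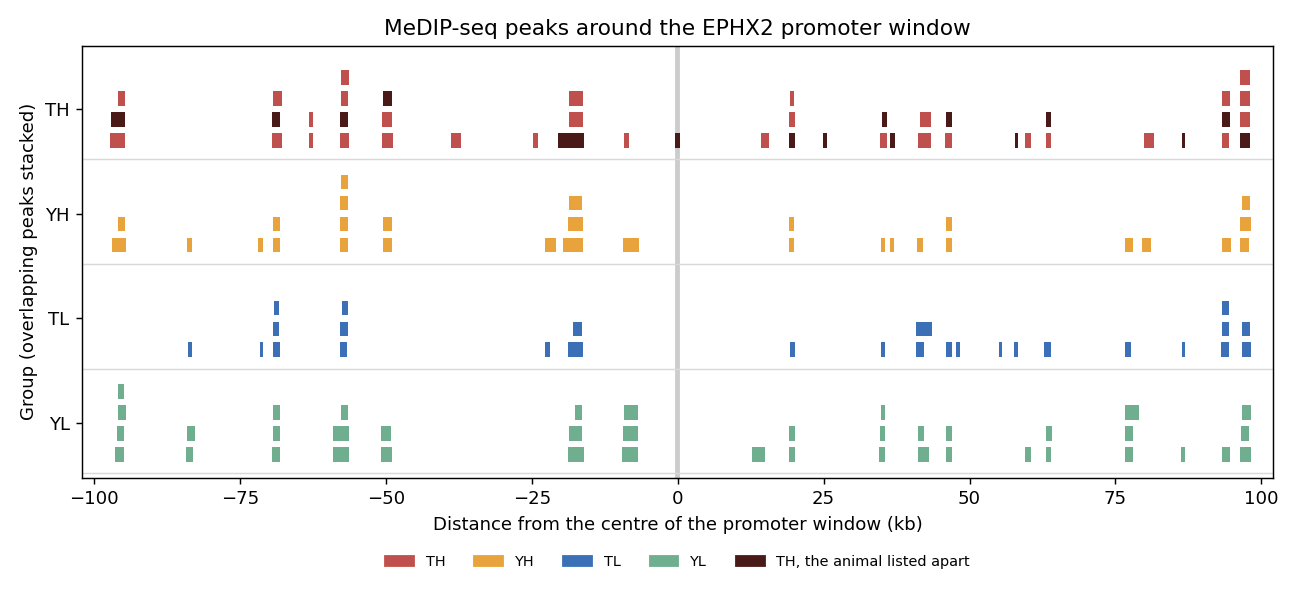
The 145 peaks within 100 kb of the EPHX2 promoter window, by group, with the distance from the window centre in kb on the horizontal axis and overlapping peaks stacked. The grey line is the window, and the dark bars are the 16 peaks of the TH animal listed apart, among them the peak at the window.

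A small number of EPHX2 clusters had peaks in most animals. The most widely shared was a cluster 56.1 kb below the window (chr14:12416154-12418912, named after its values were seen), with peaks in 4 TH, 4 YH, 3 TL and 3 YL animals. The highland peaks held 20, 45, 48 and 50 tags in TH and 31, 35, 40 and 48 in YH. The lowland peaks held 35, 39 and 45 tags in TL and 51, 68 and 83 in YL. The 3 YL values lay above those of the other groups, and a pair of the YL peaks were 2724 and 2759 bp long. The YL fold enrichments of 4.07, 5.53 and 7.15 overlapped those of TH (6.77 to 7.8), TL (6.0 to 7.35) and YH (4.03 to 7.73). The cluster 67.5 kb below the window (chr14:12405784-12407488) held the highest fold enrichment of the locus, 11.7 in a TL peak of 22 tags. It had 3 TH, 2 YH, 3 TL and 3 YL animals with 22 to 56 tags, and its 11 summits lay within 59 bp. The same stretch of DNA was thus enriched in animals of each group, with the summit at nearly the same base.

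Closer to the window, 1 TH, 1 YH, 0 TL and 3 YL animals had a peak 6.46 kb below it (chr14:12465740-12468545). The TH peak held 38 tags, the YH peak 84, and the YL peaks 59, 82 and 101, with all 5 summits within 90 bp. The fold enrichment was highest, 8.05, in the TH peak, which had the fewest tags. It was 3.85 in YH, and 4.05, 4.68 and 4.85 in YL, where it rose with the tags. The TH peak was 817 bp long and the others were 2281 to 2701 bp long. On the other side, 12.6 kb above the window, 1 TH peak of 27 tags and 1 YL peak of 64 tags overlapped (chr14:12488063-12490851), with summits 2304 bp apart. The cluster 18.8 kb above the window (chr14:12494298-12495437) had 3 TH, 2 YH, 1 TL and 2 YL animals, and its fold enrichment reached 10.8 in the TL peak and 10.31 in TH. The cluster 34.2 kb above (chr14:12509728-12511186) had 2 TH, 1 YH, 1 TL and 3 YL animals, with the highest fold enrichment, 10.14, in YL. In 12 of the 24 EPHX2 clusters with several peaks, all summits lay within 100 bp of each other.

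The cluster 94.3 kb below the EPHX2 window (chr14:12377944-12380672) separated the lowland breeds, with peaks in 4 YL and 0 TL animals. The YL peaks held 35, 46, 47 and 49 tags with fold enrichments of 7.0, 4.41, 6.32 and 4.31. At the same place 3 TH animals (27, 68 and 104 tags) and 2 YH animals (37 and 70 tags) had a peak, so that TL was the one group without a peak there. This was the only cluster of the 2 loci with 4 animals against 0 in any of the 4 comparisons of groups (two-sided Fisher's exact test, p = 0.0286, the smallest that 4 animals against 4 allow, and adjusted p = 1 by Benjamini-Hochberg over all clusters). It was 1 of 23 EPHX2 clusters tested between TL and YL outside the window, or 4.35%, where 0.785% of 197018 clusters of the genome were called in this comparison. With at least 3 animals against 0 as the limit, the cluster 6.46 kb below the window passed as well, 2 of 23, where 4.06% of the clusters of the genome passed. In windows of 500 bp in place of clusters, 2 of 74 at the locus had 4 animals against 0 (0.752% over the genome), and both lay within this cluster.

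The 99 peaks of the ICA locus fell into 21 clusters, with 10 on each side of the window and 1 at it. They covered 24858 bp, or 12.4% of the locus. Between the clusters that lay 61.3 and 18.6 kb below the window, a stretch of 42.1 kb had no peak of any animal. The median cluster had peaks in 3 animals, and 8 clusters (38.1%) had a single animal, while 5 (23.8%) had 8 or more animals. Outside the windows, Tibetan pigs alone had peaks at 5 of 20 ICA and 7 of 29 EPHX2 clusters, where 21.1% of all clusters had Tibetan peaks alone. Yorkshire pigs alone had peaks at 6 of 20 ICA and 0 of 29 EPHX2 clusters, where 22.0% of all clusters did. Without the TH animal listed apart, Tibetan pigs alone had 4 of 19 ICA and 6 of 28 EPHX2 clusters (18.5% of all), and Yorkshire pigs alone had 6 and 1 (26.5% of all).

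**Figure D3:**
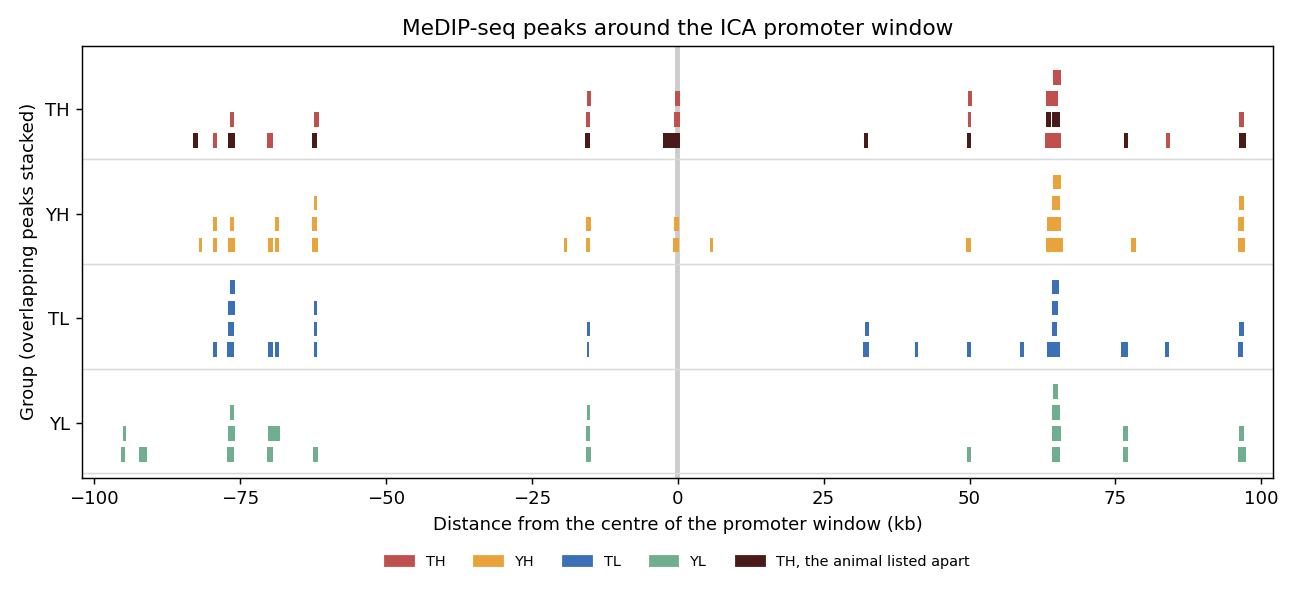
The 99 peaks within 100 kb of the ICA promoter window, by group, with the distance from the window centre in kb on the horizontal axis and overlapping peaks stacked. The grey line is the window, where TH and YH have peaks and TL and YL have none, and the 16 animals share a cluster 62.8 kb above it.

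All 16 animals had a peak at the ICA cluster 62.8 kb above the window (chr13:82400764-82403707), a state found at 1.82% of all clusters. In TH the 5 peaks of 4 animals held 23, 33, 43, 48 and 92 tags, with a pair of them (33 and 48) from the TH animal listed apart. The YH peaks held 36, 37, 62 and 96 tags, the TL peaks 23, 33, 34 and 61, and the YL peaks 24, 33, 36 and 45. The ranges of the 4 groups overlapped, and so did the fold enrichments, which ran from 4.98 in YL to 9.05 in TL. The cluster 14.6 kb below the window (chr13:82321864-82322930) had 10 animals with short peaks of 12 to 24 tags and fold enrichments of 7.78 in TL to 12.7 in TH. Lowland animals thus had called peaks on both sides of the promoter window.

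The sharpest ICA peaks were small. At the cluster 83.2 kb above the window (chr13:82421223-82422046), 1 TH peak of 14 tags had a fold enrichment of 13.45 and 1 TL peak of 15 tags had 12.92, with summits 5 bp apart, and no Yorkshire animal had a peak. The cluster 49.2 kb above (chr13:82387151-82388217) had 3 TH, 1 YH, 1 TL and 1 YL animals with 15 to 24 tags, and its fold enrichment reached 11.81 in TH. At 75.5 kb below the window (chr13:82260563-82261979, named after its values were seen), 4 TL, 3 YL, 2 TH and 2 YH animals had peaks, the reverse order of elevations to that at the promoter. The TL peaks there held 22, 26, 27 and 31 tags, the YL peaks 23, 25 and 27, the YH peaks 19 and 26 and the TH peaks 17 and 25. These tags overlapped between all groups.

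Apart from ICA's promoter, the clusters with highland peaks alone rested on few animals. At EPHX2, 7 of 30 clusters (23.3%) had highland peaks and no lowland peak, with at most 2 highland animals, and 2 (6.67%) had lowland peaks alone. Without the TH animal listed apart, 5 highland clusters were left at EPHX2. At ICA, 6 of 21 clusters (28.6%) had highland peaks alone, with 5 highland animals at the promoter and 1 at each of the others, and 4 of 21 had lowland peaks alone. Over the genome, 18.9% of the clusters had highland peaks alone and 20.8% lowland peaks alone.

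Between the groups, no cluster outside the windows was called in the other comparisons. Between TH and YH, 0 of 27 EPHX2 and 0 of 16 ICA clusters had 4 animals against 0, against 0.486% of 192276 clusters over the genome. Between TH and TL, 0 of 29 and 0 of 14 were called (0.234% over the genome), and the smallest p was 0.143 at EPHX2, where 3 TH and 0 TL animals had a peak at 2 clusters (two-sided Fisher's exact test). Both clusters had 2 TH animals without the TH animal listed apart, and 2.56% of the clusters of the genome had at least 3 animals against 0 in this comparison. In windows of 500 bp, 1 of 82 at EPHX2 had 4 TH and 0 TL animals over its middle base (0.217% over the genome). It lay within the cluster 96.1 kb above the promoter, where 2 TL animals had a peak that began past that base, and 1 of its 4 TH peaks was of the TH animal listed apart. Between YH and YL, 0 of 22 and 0 of 15 were called (0.278% over the genome). Between TL and YL, 0 of 15 ICA clusters were called. With 4 animals against 4, all other splits have an exact p above 0.05, so a cluster without a call is not shown to be alike in both groups.

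With both breeds joined, 8 highland were compared with 8 lowland animals, and with both elevations joined, 8 Tibetan with 8 Yorkshire animals. The adjusted p of Fisher's exact test passed 0.05 at 0 of the 29 EPHX2 and 0 of the 20 ICA clusters outside the windows in both comparisons, and at 0 of 242875 clusters over the genome (0%). The smallest adjusted p of this test over the genome was 0.968, between breeds. With so many clusters in the adjustment, the 0 calls at the loci say nothing of a difference there. Without adjustment, none of these clusters of the loci had an exact p under 0.05 either. Over the genome, 1087 of 242875 clusters did between elevations and 4359 of 242875 between breeds. Both are small shares, so a count of 0 among so few clusters does not set the loci apart from the genome. The smallest unadjusted exact p outside the windows was 0.282 between elevations and 0.132 between breeds.

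**Figure D4:**
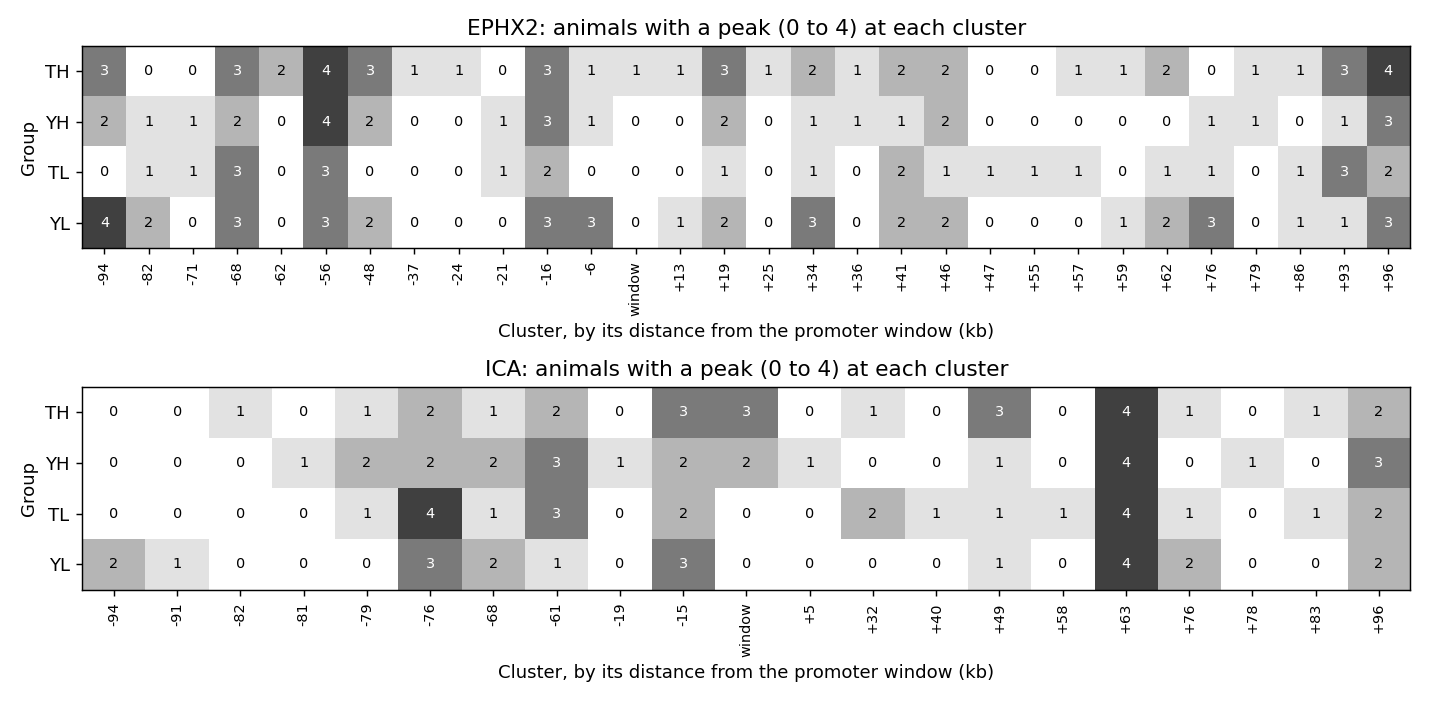
The number of animals with a peak (0 to 4) in each group (rows) at the 30 EPHX2 and 21 ICA clusters (columns), which are labelled with their distance from the promoter window in kb, below (-) or above (+) it. Darker cells have more animals. The first EPHX2 column has 4 YL and 0 TL animals, and the ICA window has 3 TH, 2 YH, 0 TL and 0 YL animals.

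TH had the largest number of peaks at the EPHX2 locus, 47 of 145, or 32.4% (95% Wilson confidence interval 25.3–40.4%, for counting error only), against 24.2% of all peaks. YH had 30 (20.7% against 24.8%), TL 27 (18.6% against 22.4%) and YL 41 (28.3% against 28.7%). Among 12929 bins of 200500 bp along chromosomes 1 to 18 and X, 97.0% had fewer TH peaks than the EPHX2 locus, and 70.9% had fewer YH, 71.0% fewer TL and 82.8% fewer YL peaks. The TH animal listed apart gave 16 of the 47 peaks and the other 3 TH animals gave 31, or 10.3 per animal. The runs of the YH list gave 6, 9, 6 and 9 peaks, and TL had 27 and YL 41 peaks over 4 animals each. Without the TH animal listed apart, TH still had 24.0% of the 129 peaks (17.5–32.1%) against 17.0% of all peaks, and 97.1% of the bins had fewer peaks of these 3 animals. The mean of these 3 animals was above each YH run. Since the TL and YL peaks cannot be assigned to animals, the difference between groups was not tested, and the peaks of a cluster are not independent of each other.

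Outside the EPHX2 window, TH had more animals with a peak than TL at 18 of 29 clusters (62.1%, against 33.8% of all clusters) and fewer at 6 (20.7% against 28.0%). Without the TH animal listed apart, which leaves 3 TH against 4 TL animals, TH was above TL at 11 of 28 clusters (39.3% against 20.3%) and below it at 10 (35.7% against 40.4%). YH was above YL at 5 EPHX2 clusters (17.2% against 23.6%) and below it at 11 (37.9% against 35.5%), in the order that the larger YL list had over the genome. At ICA outside the window, TH was above TL at 3 of 20 clusters and below it at 5, and without the TH animal listed apart these numbers were 1 and 8 of 19. YH was above YL at 7 ICA clusters and below it at 5. The cluster 67.8 kb below the ICA window counted as equal, with 2 animals each, although its YH peaks came from 3 runs. These counts were not tested.

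The ICA locus held nearly equal numbers of peaks, 26 each in TH and YH (26.3%, against 24.2% and 24.8% of all peaks), 25 in TL (25.3% against 22.4%) and 22 in YL (22.2% against 28.7%). The TH animal listed apart gave 11 of the 26 TH peaks and the other 3 gave 5.0 per animal, and the YH runs gave 6, 6, 9 and 5. Among the bins, 62.3% had fewer TH, 60.9% fewer YH, 65.6% fewer TL and 45.0% fewer YL peaks. The pattern at the ICA promoter was therefore not seen in the totals of the locus.

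**Figure D5:**
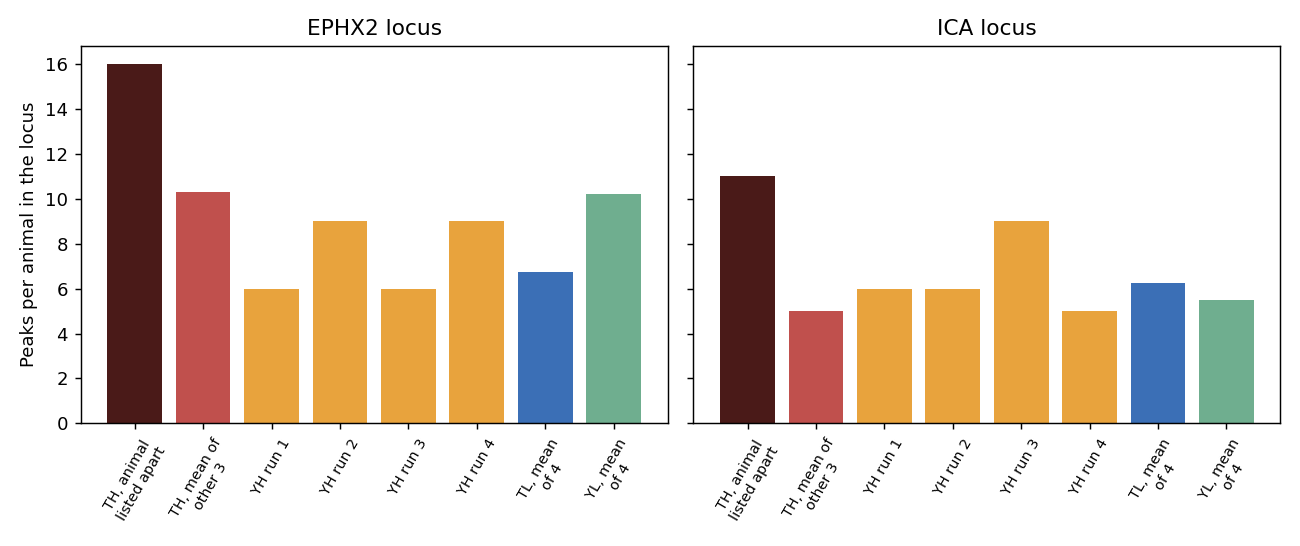
Peaks per animal (vertical axis, from 0) in the EPHX2 (left) and ICA (right) loci. The YH bars are single animals (runs of the YH list), the first bar is the TH animal listed apart with 16 and 11 peaks, and the bars for the other TH animals, TL and YL are means (10.3 for TH and 6.75 for TL at EPHX2), for which no spread can be given.

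The peaks of the 2 loci were set beside the medians of their lists. At EPHX2 they were longer and less sharply enriched than the median peak of their list, with median lengths of 1118 bp (TL), 1311 bp (TH and YL) and 1369.5 bp (YH), against 943 to 1045 bp over the lists. Their median fold enrichment was 6.77 (TH), 5.7 (YH), 6.89 (TL) and 5.98 (YL), where the lists had 8.28, 7.29, 7.88 and 7.49, and their median tags of 35 to 46 lay above the 25 to 30 of the lists. At ICA the median lengths were 802 to 931 bp and the median tags 19 to 23.5, both below those of the lists. The median fold enrichment at ICA was 7.66 (TH), 7.03 (YH) and 7.25 (YL), also below those lists, and 8.68 in TL, above its list. The EPHX2 promoter peak, with 28 tags, lay below the median of the TH peaks around it (38), and its fold enrichment of 7.64 lay above theirs. The ICA promoter peaks, with 20 to 75 tags, each held at least as many tags as the TH median (19) and the YH median (20) of that locus. Those medians were below the medians of the whole TH list (27) and YH list (29).

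At the limits of the loci, the outermost EPHX2 peaks taken lay 2.94 kb (TH, 104 tags) inside the lower limit and 2.01 kb (YL, 78 tags) inside the upper, and the nearest peaks left out lay 2.21 kb (TH, 73 tags) and 6.73 kb (YH, 56 tags) outside. For ICA, the peaks just inside lay 4.84 kb (YL, 21 tags) and 2.84 kb (YL, 17 tags) from the limits, and those just outside 3.57 kb (TH, 28 tags) and 1.9 kb (YL, 41 tags).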

How the data were processed

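Heart DNA of 16 pigs was captured by MeDIP and sequenced. Per the methods, FASTX (version 0.0.13) was used by the authors to filter the reads. Alignment to Sscrofa10.2 (the genome of Ensembl release 69) was by Bowtie, version 0.12.8, and peak calling by MACS, version 1.4. The authors deposited 1 list per group. Tags were deposited as a count of reads per peak without normalization. The fold enrichment was deposited as the peak caller's ratio to the local background. Neither was compared between groups by a test, since a peak's animal is not named.

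Here, overlapping peaks of the 4 lists were joined into 242875 clusters. The most peaks of a group over any base was taken as its number of animals, which is a lower bound. The joined end field was used for all peaks. Fisher's exact test (two-sided) was run per cluster genome-wide in 4 comparisons of 4 animals and 2 of 8, with Benjamini-Hochberg adjustment over all clusters with a peak. Joining and calling were tested on simulated data. Depth per animal is not in the lists, so the precision behind a missing peak is unknown. The clusters at both windows stayed in this adjustment, and their p-values are not reported. The counts of tested clusters per locus leave them out.

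The loci, clusters and tests were chosen with earlier results of these data known. Clusters described singly were those at and next to the windows, those with 4 animals against 0, those in all 16 animals and the 3 of highest fold enrichment per locus; others are marked as named after their values were seen. Windows came from the study's list of differential windows, whose other values were not used. Alternatives were another joining distance, 500 bp windows, other ways of counting a group's peaks, minimum tags or fold enrichment and a limit of 3 animals against 0. Leaving out the TH animal listed apart and each YH run was added after seeing the data. Scripts ran in Python 3.11.15 with SciPy 1.17.1 for the tests, pandas 2.3.3 and NumPy 2.4.6 for the tables and Matplotlib 3.10.9 for figures.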

Additional observations from a re-analysis of the deposited data

How the results depend on the processing

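Of 128 values under other settings, 116 stayed within 1.5 times the value reported, but 97 of these were counts of 0 that stayed 0 and say nothing of stability, which leaves 19 counts above 0. With a fold enrichment of at least 10, the clusters fell to 3 at EPHX2 and 6 at ICA, and 0 peaks of TH remained at either promoter window and 0 of YH at ICA. With at least 20 tags, 12 ICA clusters were left. Without the TH animal listed apart, the EPHX2 window had 0 TH peaks. Counted in 500 bp windows by the middle base, 2 windows at EPHX2 had 4 animals against 0 between TL and YL (0.752% of all windows) and 1 between TH and TL (0.217%), which holds a peak of the TH animal listed apart. With at least 3 animals against 0, these numbers were 2 and 2 clusters (4.06% and 2.56% of all clusters), and between TH and TL the ICA locus had 1, the promoter, where the count is a description. All 3 of these TH and TL clusters had 2 TH animals without the TH animal listed apart. No paired analysis was possible because the lists carry no replicate numbers. For the same reason single TL and YL animals and the other 3 TH animals could not be left out. Without each YH run in turn, 0 clusters of either locus were called between YH and TH or between YH and YL. A fold enrichment and a call depend on reads per animal, which these lists do not give.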
